A study of Mus musculus with 18 samples.

Results

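The cathepsins Ctsb, Ctsc, Ctsd, Ctsh, Ctsk, Ctsl, Ctss and Ctsz were examined in macrophages sorted from mouse synovium. So were the asparaginyl endopeptidase legumain (Lgmn) and cystatin C (Cst3), a secreted inhibitor of cysteine cathepsins. These 10 genes were taken by their symbols from the 24421 symbols of the count files, and all 10 passed the filter on low counts, as did 10550 genes in all. The mice were labelled C57BL/6 (wild-type C57BL/6J background in the study's methods), and for age the methods give only a general range of adult mice for in vivo work. Each of 6 groups had 3 libraries of bulk total RNA. They came from LYVE1+CX3CR1+ macrophages (labelled Lyve1, gated as negative for MHCII and Ly6C), MHCII+CD11c- macrophages (labelled IAIE) and MHCII+CD11c+ macrophages (labelled CD11c), either untreated (labelled Healthy) or 8 h after intravenous immune complexes (IC) of ovalbumin and rabbit antibodies to it. Legs of several mice were pooled for each sort, so the spread between libraries was that of pools, and a subset is defined by a few surface proteins.

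Lysosomal proteases are made as inactive precursors, carried to the endolysosome by mannose 6-phosphate and other sorting receptors, and activated in its acid lumen. Most cathepsins are cysteine proteases, whereas cathepsin D is an aspartic protease and legumain cuts after asparagine. Macrophages use them to digest what they engulf, including antibody-coated antigen, and to trim the invariant chain and antigens for MHC class II, a step in which cathepsin S has the leading role in these cells. Cystatins bind to the active site of cysteine cathepsins and block it.

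In the GRCm38 build (GENCODE M21), Ctsk (chr3:95499256-95509362) and Ctss (chr3:95526786-95556403) are neighbours on the plus strand. Ctsc lies at chr7:88278085-88310888, Ctsh at chr9:90054152-90076089 and Ctsb at chr14:63122462-63145923, all on the plus strand. On the minus strand lie Cst3 (chr2:148871722-148875692), Ctsz (chr2:174427493-174439039), Ctsd (chr7:142375911-142388038), Lgmn (chr12:102394084-102439813) and Ctsl (chr13:64359337-64370890). Each value below is for the whole gene.

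Library totals lay between 245903 and 2172358 counts, and the smallest was MHCII+CD11c- replicate 2 after IC, in which 9700 symbols had a count. All levels below are CPM, the count of a gene over the library total scaled by the trimmed mean of M values (TMM), and all differences are log2 fold changes with their SE from edgeR's quasi-likelihood test over the 18 libraries, called at an adjusted p under 0.05. Csf1r, the receptor for the macrophage growth factor, was at 746 to 3326 CPM in every library. The genes of the gating proteins followed the labels in untreated samples: Lyve1 was at 2171 to 2563 CPM in LYVE1+CX3CR1+ macrophages and at 329 to 882 in the MHCII+ subsets, H2-Ab1 at 20.1 to 20.5 and 4548 to 7825, and Itgax at 240 to 304 in MHCII+CD11c+ macrophages and at most 13.3 elsewhere. Of the 4 gating genes, 1 was called higher and 1 lower after IC in MHCII+CD11c- macrophages, where 1.06% of all tested genes were called. In MHCII+CD11c+ macrophages 2 were called higher (0.673% of all tested genes called), in LYVE1+CX3CR1+ none (0.464%). After IC, LYVE1+CX3CR1+ macrophages had 2 higher and 2 lower than each MHCII+ subset (9.77% called against MHCII+CD11c- and 19.7% against MHCII+CD11c+ macrophages). The summed class II loading genes, with the invariant chain, fell in MHCII+CD11c- libraries. They went from 9865 to 10670 down to 2316 to 7413 CPM, lowest in replicate 2. The part of these shifts in values after IC was not tested. RNA of other cells was present as well. The summed level of 9 neutrophil markers was 13.2 to 17.2 CPM in untreated LYVE1+CX3CR1+ libraries, where S100a8, Ngp, Camp and Ltf had no count, 775 to 1870 in MHCII+CD11c- and 20.4 to 592 in MHCII+CD11c+ libraries. After IC it was 19.2 to 170, 1525 to 4255 and 1047 to 2356 CPM, with all 9 markers detected in each group. In bulk RNA, fewer cells of a type cannot be told apart from less RNA per cell.

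The promoters of 8 of the 10 genes were matched in RefSeq (GRCm38.p6, 9 start sites), all but Ctsb and Ctsh. Letters are shown first for Ctsd, Ctsl and Lgmn, the matched members that hold the first word searched. Any relation of that word to their levels was not tested. The 250 bases before each start site were searched on both strands for CACGTG, which reads the same on both strands and is the centre of the element bound by TFEB and its relatives, regulators of lysosomal genes. The word was in windows of 3 members against 6.02% of the 32851 promoters in the table. It is in capitals in these 30-base stretches, written 5′ to 3′ on the minus strand that all 3 genes use. The first Ctsd stretch lies before the outermost annotated start, the second in the 5′ UTR of a Ctsd transcript, the Ctsl stretch at the edge of the first exon of a Ctsl transcript, and the Lgmn stretch in an intron of an Lgmn transcript that starts farther upstream.
Ctsd, chr7:142388048-142388077: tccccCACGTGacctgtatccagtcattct
Ctsd, chr7:142387908-142387937: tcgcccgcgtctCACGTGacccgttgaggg
Ctsl, chr13:64370739-64370768: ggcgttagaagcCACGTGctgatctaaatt
Lgmn, chr12:102439124-102439153: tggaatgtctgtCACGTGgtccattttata

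A second word, GAGGAA or its complement TTCCTC, is the core read by PU.1, a transcription factor of macrophages. It was in windows of Ctsc, Ctsk, Ctss and Cst3, and in 23.3% of all promoters searched. The promoters of Ctss, the member with the highest level per length, and of Ctsc, one of the members that was lower in LYVE1+CX3CR1+ macrophages, are given with that word in capitals. Both lie on the plus strand and end at the base before the start site. A match of letters is a description of these windows and was not tested as a binding site.
Ctss, chr3:95526536-95526785: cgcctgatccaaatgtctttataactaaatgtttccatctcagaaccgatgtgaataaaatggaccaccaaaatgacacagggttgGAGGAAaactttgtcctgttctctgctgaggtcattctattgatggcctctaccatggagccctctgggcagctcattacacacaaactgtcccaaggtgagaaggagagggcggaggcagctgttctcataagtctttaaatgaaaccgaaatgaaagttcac
Ctsc, chr7:88277835-88278084: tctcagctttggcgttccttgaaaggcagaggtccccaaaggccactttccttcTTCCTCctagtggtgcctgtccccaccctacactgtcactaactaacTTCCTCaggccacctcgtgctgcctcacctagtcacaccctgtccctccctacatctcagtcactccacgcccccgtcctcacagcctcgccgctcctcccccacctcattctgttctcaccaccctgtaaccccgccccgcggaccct

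The summed level of the 10 genes was 13760 to 15030 CPM in untreated LYVE1+CX3CR1+ libraries, 9611 to 10350 in MHCII+CD11c- and 8394 to 9631 in MHCII+CD11c+ libraries, so that the first group lay apart from the others. After IC the sums were 16680 to 17790, 8449 to 12890 and 9572 to 10230 CPM. Set on length (CPM per kb of exon), Ctss had the highest level in all 6 groups, from 1474 to 2400 CPM per kb. In untreated LYVE1+CX3CR1+ macrophages Ctsd followed with 1385, Cst3 with 1236, Lgmn with 802 and Ctsb with 553 CPM per kb. Ctsz was at 289 and Ctsc at 77.0 CPM per kb, and Ctsl, Ctsh and Ctsk stood lowest at 32.6, 31.8 and 19.9 CPM per kb. In MHCII+CD11c+ macrophages Cst3 came second with 935 CPM per kb, ahead of Ctsd with 402, and Ctsh stood above Ctsl with 102 against 22.8 CPM per kb. With the longest transcript in place of the exon union as the length, 0 to 6 of the 10 ranks changed, depending on the group. Cst3 then stood above Ctsd in untreated LYVE1+CX3CR1+ macrophages, while Ctss stayed highest and Ctsk lowest in each group. The summed level of 9 macrophage markers had the same order without treatment, with 14080 to 14570, 10560 to 12670 and 7183 to 7859 CPM, and its part in the levels of the proteases was not tested.

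**Figure D1:**
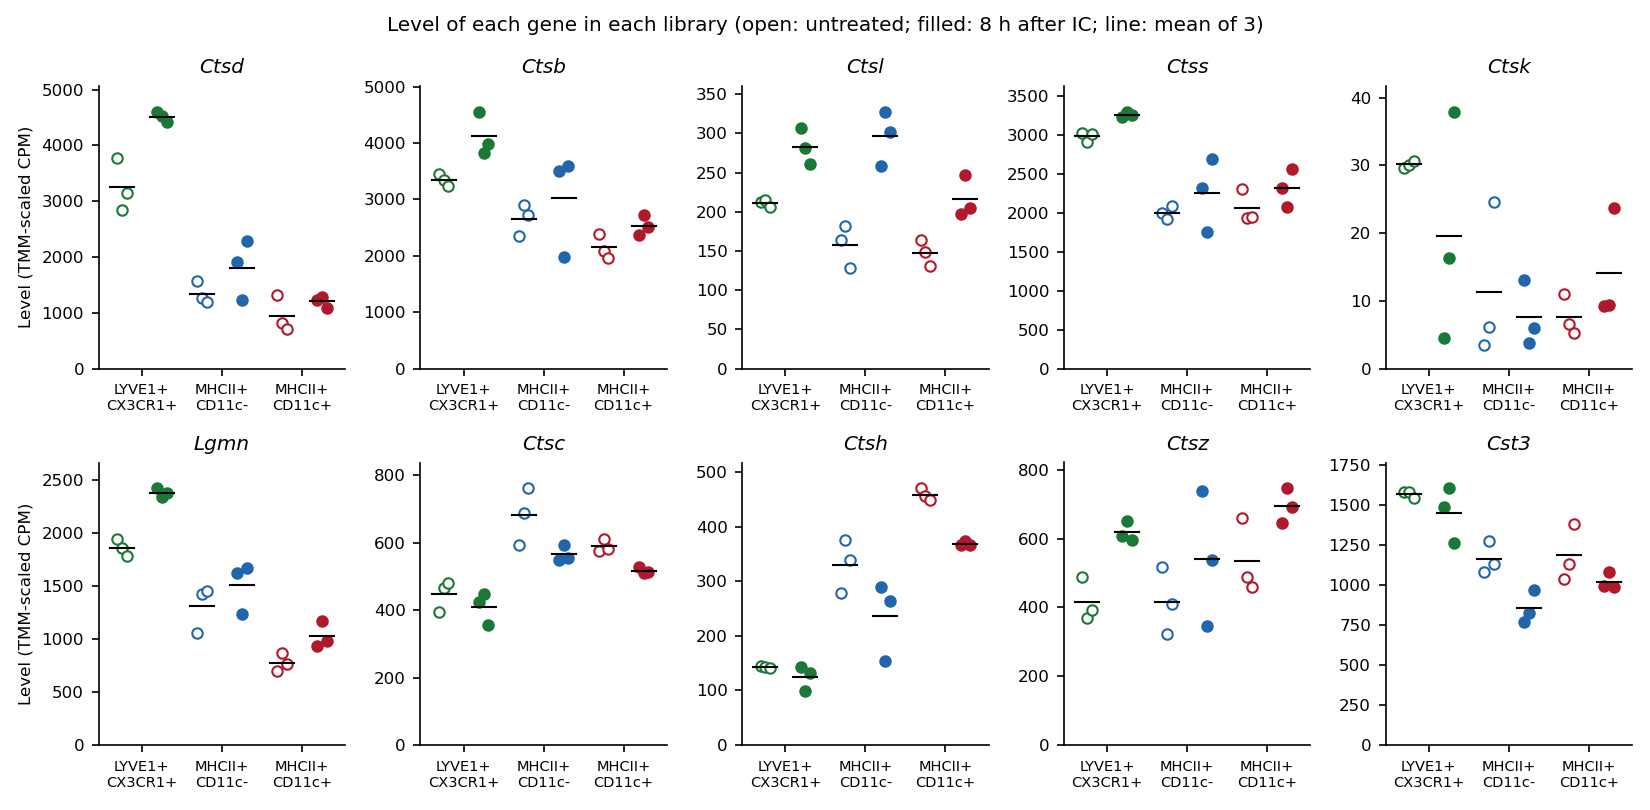
Level of each gene (vertical axis, TMM-scaled CPM, from 0) in each of the 18 libraries, by subset, with untreated libraries open, libraries 8 h after IC filled and the mean of 3 as a line. Ctsd, Ctss and Lgmn sit higher in every LYVE1+CX3CR1+ library than in any other, Ctsc and Ctsh sit lower, and Ctsk ranges from 3.49 to 37.9 CPM with overlap between groups.

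Cathepsin D, the aspartic protease, separated the subsets most among the abundant members. In untreated LYVE1+CX3CR1+ libraries Ctsd was at 3770, 2847 and 3155 CPM. It was at 1561, 1258 and 1185 CPM in MHCII+CD11c- and at 1312, 808 and 716 CPM in MHCII+CD11c+ libraries. Every LYVE1+CX3CR1+ library lay above every MHCII+ library, and the MHCII+ subsets overlapped. Ctsd was 2.44-fold higher in LYVE1+CX3CR1+ than in MHCII+CD11c- macrophages (log2 fold change 1.29, SE 0.21, adjusted p = 0.00012) and 3.45-fold higher than in MHCII+CD11c+ macrophages (1.78, SE 0.21, adjusted p = 4.0e-07).

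Among the cysteine endopeptidases, cathepsin S, which completes the removal of the invariant chain, was at 3018, 2906 and 3013 CPM in untreated LYVE1+CX3CR1+ libraries. The 6 untreated MHCII+ libraries held 1917 to 2307 CPM of Ctss, with no overlap with the former. Ctss was higher in LYVE1+CX3CR1+ macrophages by 0.57 (SE 0.15, adjusted p = 0.0100) and 0.53 (SE 0.15, adjusted p = 0.0089) on the log2 scale than in MHCII+CD11c- and MHCII+CD11c+ macrophages. The transcript of the protease best known for class II processing was more abundant in the subset with the least H2-Ab1 RNA. Protein was not measured in these libraries. Cathepsin B, a broad lysosomal protease, was at 3452, 3344 and 3233 CPM in LYVE1+CX3CR1+, 2354, 2897 and 2732 in MHCII+CD11c- and 2394, 2089 and 1966 CPM in MHCII+CD11c+ libraries. Its difference passed the threshold against MHCII+CD11c+ macrophages (0.64, SE 0.17, adjusted p = 0.0074), whereas against MHCII+CD11c- macrophages the value was 0.33 (SE 0.17, adjusted p = 0.26) although those libraries did not overlap.

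Cathepsin L, an endopeptidase that acts on the invariant chain in thymic epithelium, was scarcer, at 213, 215 and 206 CPM in untreated LYVE1+CX3CR1+, 164, 182 and 128 in MHCII+CD11c- and 164, 149 and 131 CPM in MHCII+CD11c+ libraries. LYVE1+CX3CR1+ libraries were the highest without overlap. The difference was called against MHCII+CD11c+ (0.52, SE 0.16, adjusted p = 0.023) and was 0.42 against MHCII+CD11c- macrophages (SE 0.17, adjusted p = 0.11). Cathepsin K, the collagen-degrading protease of osteoclasts, rested on 1 to 79 counts per library. It was at 29.7, 30.1 and 30.7 CPM in untreated LYVE1+CX3CR1+ macrophages, at 3.49, 6.11 and 24.5 in MHCII+CD11c- and at 11.03, 6.57 and 5.31 CPM in MHCII+CD11c+ macrophages. Its higher level than in MHCII+CD11c+ macrophages was called (1.97, SE 0.60, adjusted p = 0.019), and the call was lost without replicate 2 (1.88, adjusted p = 0.065) or 3 (1.75, adjusted p = 0.089) of the latter. Against MHCII+CD11c- macrophages it was not (1.36, SE 0.62, adjusted p = 0.18), and without replicate 3 of those, the library with 24.5 CPM, the value was 2.65 (adjusted p = 0.028). Fibroblasts also make cathepsin K, and LYVE1+CX3CR1+ replicate 1, with 645 CPM of 8 fibroblast markers against 31.3 and 30.2 CPM in its replicates, had 29.7 CPM of Ctsk against their 30.1 and 30.7. This is 1 library, and the part of fibroblast RNA in the level of Ctsk was not tested.

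Legumain graded over the subsets. Lgmn was at 1941, 1864 and 1786 CPM in untreated LYVE1+CX3CR1+, at 1060, 1428 and 1451 in MHCII+CD11c- and at 701, 865 and 767 CPM in MHCII+CD11c+ libraries. No library of one subset overlapped with another subset. The difference between LYVE1+CX3CR1+ and MHCII+CD11c+ macrophages was 1.26 (SE 0.16, adjusted p = 7.8e-07), and that between LYVE1+CX3CR1+ and MHCII+CD11c- macrophages was 0.51 (SE 0.15, adjusted p = 0.031). Lgmn was also the single member that differed between the MHCII+ subsets, lower in MHCII+CD11c+ by 0.76 on the log2 scale (SE 0.15, adjusted p = 0.0046). The call against MHCII+CD11c- macrophages was lost when MHCII+CD11c- replicate 1 was left out (0.38, adjusted p = 0.20), and when any 1 of the LYVE1+CX3CR1+ libraries was (0.48 to 0.54, adjusted p = 0.062 to 0.10).

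Cathepsins H and C went the other way. Cathepsin H, an aminopeptidase, was at 144, 143 and 142 CPM in untreated LYVE1+CX3CR1+ libraries. It was at 278, 375 and 338 CPM in MHCII+CD11c- and at 470, 456 and 448 CPM in MHCII+CD11c+ libraries, again with no overlap between any subsets. Ctsh was 2.31-fold lower in LYVE1+CX3CR1+ than in MHCII+CD11c- (log2 fold change -1.21, SE 0.18, adjusted p = 5.6e-05) and 3.21-fold lower than in MHCII+CD11c+ macrophages (-1.68, SE 0.18, adjusted p = 1.1e-07). Cathepsin C, the dipeptidyl peptidase that activates serine proteases of granules, was at 396, 466 and 481 CPM in LYVE1+CX3CR1+ and at 576 to 762 CPM in the 6 MHCII+ libraries. Ctsc was lower in LYVE1+CX3CR1+ macrophages by 0.61 (SE 0.14, adjusted p = 0.0051) and 0.40 (SE 0.14, adjusted p = 0.044) on the log2 scale than in MHCII+CD11c- and MHCII+CD11c+ macrophages. Leaving out LYVE1+CX3CR1+ replicate 1 gave -0.52 (adjusted p = 0.050) in the first comparison, and the call in the second was lost without any 1 of its 6 libraries (adjusted p = 0.072 to 0.22). Cathepsin Z, a carboxypeptidase, overlapped between all untreated subsets, with 369 to 487, 324 to 517 and 460 to 658 CPM.

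Cathepsin C is also made by neutrophils, whose markers are given above, and dendritic cells hold lysosomal cathepsins too. The summed level of 8 dendritic cell markers was 8.76 to 12.9 CPM in untreated LYVE1+CX3CR1+, 155 to 170 in MHCII+CD11c- and 280 to 462 CPM in MHCII+CD11c+ libraries, with Flt3 at 0 in the first, and so it moved in the same order as Ctsh. The part of these cells in the levels of Ctsc and Ctsh was not tested.

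Cystatin C was at 1578, 1578 and 1539 CPM in untreated LYVE1+CX3CR1+, 1080, 1276 and 1127 in MHCII+CD11c- and 1037, 1131 and 1381 CPM in MHCII+CD11c+ libraries. LYVE1+CX3CR1+ libraries were the highest, without overlap. The difference was 0.43 against MHCII+CD11c- (SE 0.15, adjusted p = 0.057) and 0.40 against MHCII+CD11c+ macrophages (SE 0.15, adjusted p = 0.048). The first was past the threshold with DESeq2 (0.42, adjusted p = 0.0069), and the second was not when any 1 of 5 of its 6 libraries was left out (adjusted p = 0.089 to 0.21).

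In all, 3 of the 10 genes were higher and 2 lower in untreated LYVE1+CX3CR1+ than in MHCII+CD11c- macrophages, where 11.4% of all tested genes were called. The median difference was 0.43 over the 10 genes and -0.02 over all tested genes. Against MHCII+CD11c+ macrophages 7 were higher, 2 were lower and Ctsz was not called, with 21.8% of all tested genes called and a median of 0.52 over the 10 genes against -0.02. Between the MHCII+ subsets only Lgmn was called, 1 of 10 where 3.49% of all tested genes were. These comparisons share libraries, and their values are given side by side. Leaving out each library in turn left 5 to 7 of the 9 calls against MHCII+CD11c+ macrophages, with 5 without their replicate 2, and leaving out LYVE1+CX3CR1+ replicate 1 left 3 of the 5 against MHCII+CD11c- macrophages.

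**Figure D2:**
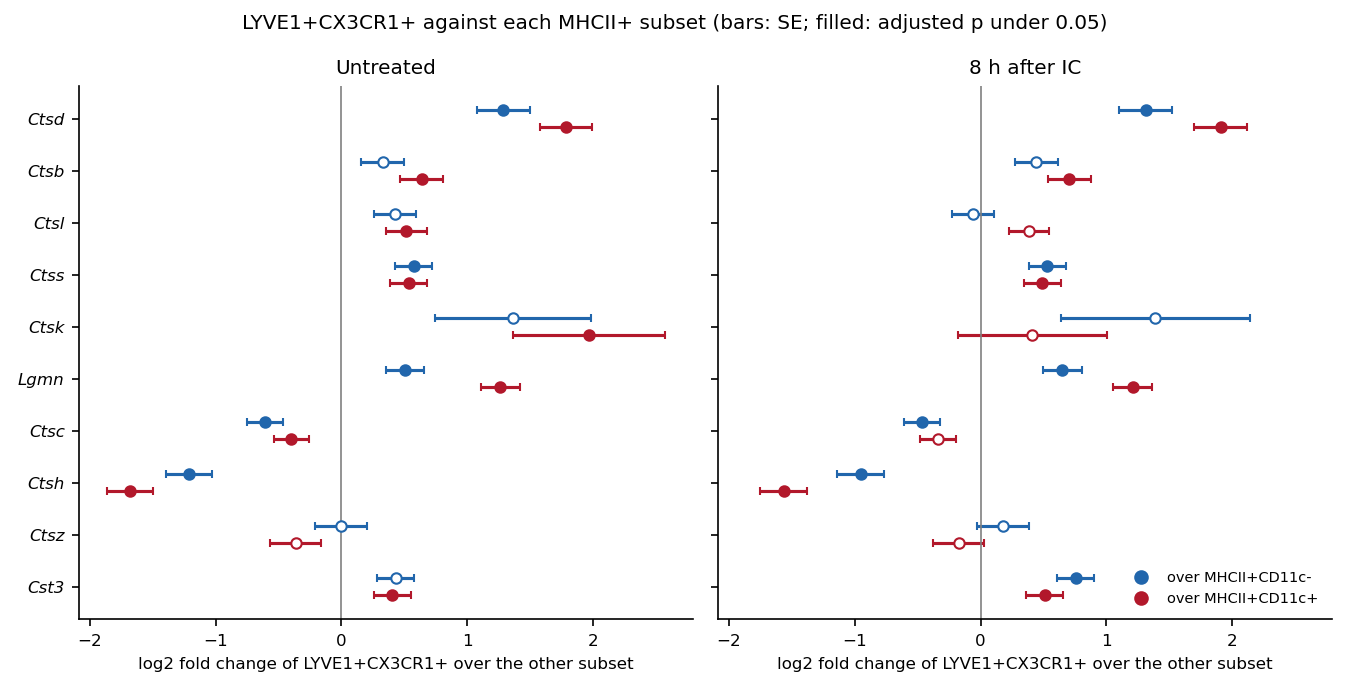
log2 fold change (horizontal axis) of each gene in LYVE1+CX3CR1+ over MHCII+CD11c- (blue) and over MHCII+CD11c+ macrophages (red), untreated (left) and 8 h after IC (right), with the SE as bars and filled points for an adjusted p under 0.05. Ctsd lies farthest to the right among the abundant genes (1.29 and 1.78 untreated) and Ctsh farthest to the left (-1.21 and -1.68) in both panels.

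The same contrasts were drawn among the libraries taken 8 h after IC, which share none with the untreated ones. LYVE1+CX3CR1+ macrophages had 4 genes higher and 2 lower than MHCII+CD11c- macrophages (9.77% of all tested genes were called) and 5 higher and 1 lower than MHCII+CD11c+ macrophages (19.7%). Ctsd was at 4606, 4529 and 4421 CPM in LYVE1+CX3CR1+, 1911, 1227 and 2295 in MHCII+CD11c- and 1228, 1289 and 1091 CPM in MHCII+CD11c+ libraries, and of the called members it was again the farthest apart (1.31, SE 0.21, adjusted p = 0.00010, and 1.91, SE 0.21, adjusted p = 1.9e-07). Ctsh was lower in LYVE1+CX3CR1+ macrophages by 0.95 (SE 0.19, adjusted p = 0.0013) and 1.56 (SE 0.18, adjusted p = 4.7e-07) on the log2 scale. Lgmn was higher by 0.65 (SE 0.15, adjusted p = 0.0066) and 1.21 (SE 0.16, adjusted p = 1.9e-06). Ctss was higher by 0.53 (SE 0.15, adjusted p = 0.022) and 0.49 (SE 0.15, adjusted p = 0.018), and Cst3 by 0.76 (SE 0.15, adjusted p = 0.0011) and 0.51 (SE 0.15, adjusted p = 0.013).

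Calls were fewer for the remaining members after IC. Ctsb was higher than in MHCII+CD11c+ macrophages (0.71, SE 0.17, adjusted p = 0.0036) and stood at 0.44 against MHCII+CD11c- macrophages (SE 0.17, adjusted p = 0.11). The value of Ctsc against MHCII+CD11c- macrophages was -0.46 (SE 0.15, adjusted p = 0.042), and this call was lost on leaving out any of the 6 libraries (adjusted p = 0.069 to 0.19). Ctsl, apart between LYVE1+CX3CR1+ and MHCII+CD11c- libraries without treatment, overlapped after IC, with 261 to 307 and 259 to 328 CPM. Between the MHCII+ subsets Lgmn was again the lower in MHCII+CD11c+ macrophages (-0.56, SE 0.16, adjusted p = 0.049), 1 call of 10 where 2.84% of all tested genes were called. That call was lost without any 1 of 5 of the 6 libraries (adjusted p = 0.059 to 0.21), and without MHCII+CD11c- replicate 2, the smallest library, 3 members were called. With 1 surrogate variable in the fit, Ctsh was the single member called between LYVE1+CX3CR1+ and MHCII+CD11c- macrophages after IC, and Ctsd was at 0.99 (adjusted p = 0.060). A fit of these 6 libraries alone called 2 of the 6.

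Of the 10 genes, Ctsl was the single one called after IC in any 1 subset. In MHCII+CD11c- macrophages Ctsl was at 164, 182 and 128 CPM without treatment and at 259, 328 and 301 CPM after IC. These groups did not overlap, and Ctsl rose 1.87-fold (log2 fold change 0.91, SE 0.17, adjusted p = 0.0083). In that subset 1.06% of all tested genes were called. The call was lost without untreated replicate 3, the library with 128 CPM (0.77, adjusted p = 0.060), and in a fit of these 6 libraries alone (0.92, adjusted p = 0.17). Cst3 did not overlap either, with 1080, 1276 and 1127 CPM before and 769, 825 and 970 CPM after IC (-0.44, SE 0.15, adjusted p = 0.15). The summed neutrophil markers in this subset were at 1870, 778 and 775 CPM without treatment and at 1681, 1525 and 4255 CPM after IC. The sum of 6 mast cell markers was at 6.11 to 214 CPM before and 115 to 497 CPM after IC. Both sums overlapped between the groups, and no tested marker of either list was called. The summed dendritic cell markers went down, from 155 to 170 CPM without treatment to between 62.8 and 119 CPM after IC. The 8 fibroblast markers were at 54.7 to 91.7 CPM before and at 7.84, 162 and 13.0 CPM after IC. The part of these cells, and of the shift in gating genes given above, in the rise of Ctsl was not tested.

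In LYVE1+CX3CR1+ macrophages no member was called after IC by edgeR, where 0.464% of all tested genes were. DESeq2 called none of the 9 to which it gave an adjusted p, and edgeR on these 6 libraries alone called 3. Ctsz was at 487, 369 and 393 CPM without treatment and at 606, 652 and 595 CPM after IC (0.57, SE 0.20, adjusted p = 0.31). Ctsl was at 206 to 215 and 261 to 307 CPM (0.42, SE 0.16, adjusted p = 0.38), Lgmn at 1786 to 1941 and 2344 to 2425 CPM (0.35, SE 0.15, adjusted p = 0.48), and Ctsd at 2847 to 3770 and 4421 to 4606 CPM (0.47, SE 0.20, adjusted p = 0.48). For these 4 genes, and for Ctsb and Ctss, the libraries after IC were the higher without overlap. None was called in the fit of all 18 libraries (for Ctss 0.13, SE 0.15, adjusted p = 0.91). How many of all tested genes lay apart in this way was not counted. In the fit of these 6 libraries alone Ctsz (0.58, adjusted p = 0.0073), Ctsd (0.48, adjusted p = 0.012) and Lgmn (0.36, adjusted p = 0.045) passed the threshold.

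In MHCII+CD11c+ macrophages edgeR called no member after IC, where 0.673% of all tested genes were called. DESeq2 called Ctsl (0.56, adjusted p = 0.023). Ctsl was at 164, 149 and 131 CPM before and 198, 246 and 205 CPM after IC, without overlap (0.55, SE 0.17, adjusted p = 0.15). Lgmn was at 701, 865 and 767 CPM before and 935, 1173 and 984 CPM after IC (0.41, SE 0.15, adjusted p = 0.32). Ctsh and Ctsc stood lower in all 3 libraries after IC, with 366 to 374 against 448 to 470 CPM (-0.31, SE 0.18, adjusted p = 0.62) and 511 to 528 against 576 to 610 CPM (-0.19, SE 0.14, adjusted p = 0.77).

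Averaged over the 3 subsets, 4 of the 10 genes rose and none fell, where 6.21% of all tested genes were called, and the median change was 0.20 over the 10 genes and -0.01 over all tested genes. Ctsl rose by 0.63 (SE 0.10, adjusted p = 0.00018), Ctsz by 0.44 (SE 0.12, adjusted p = 0.023), Lgmn by 0.32 (SE 0.09, adjusted p = 0.026) and Ctsd by 0.42 (SE 0.12, adjusted p = 0.030). The fitted values of Cst3 (-0.25, SE 0.08, adjusted p = 0.074) and Ctsh (-0.32, SE 0.11, adjusted p = 0.069) were below 0 and not called, and both were called with DESeq2 (adjusted p = 0.011 and 0.014). Only Ctsl kept its call whichever library was left out. The calls of Ctsd, Ctsz and Lgmn were lost without 12, 8 and 10 of the 18 libraries, with adjusted p of 0.053 to 0.087. Without MHCII+CD11c- replicate 2 after IC, 7 of the 10 were called.

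**Figure D3:**
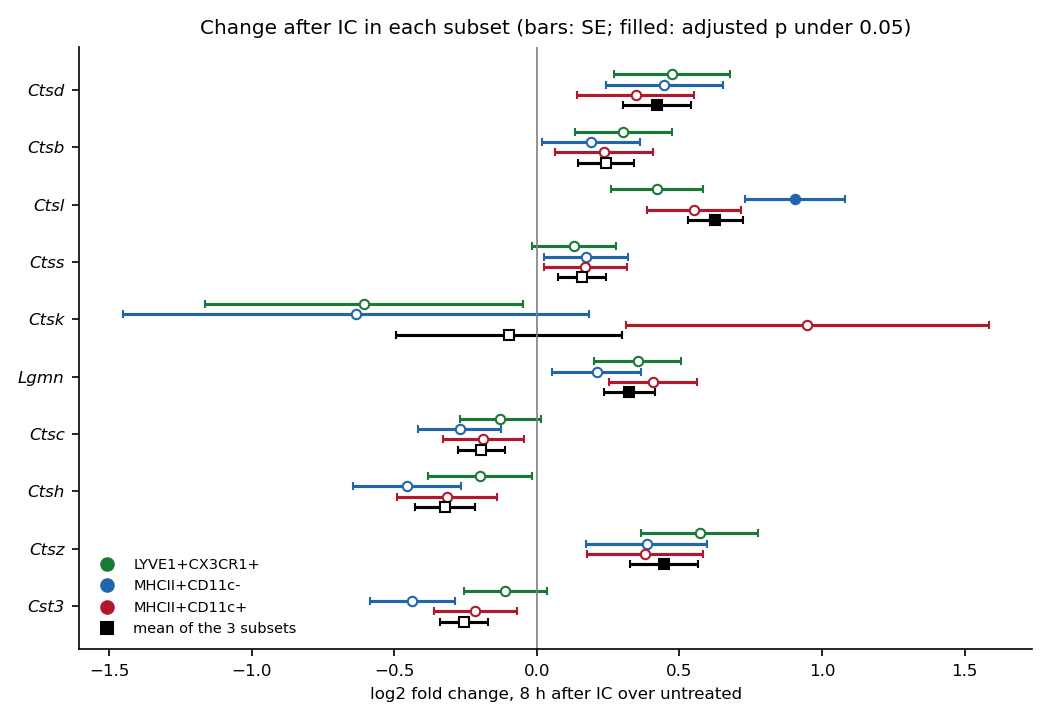
log2 fold change after IC (horizontal axis) of each gene in LYVE1+CX3CR1+ (green), MHCII+CD11c- (blue) and MHCII+CD11c+ macrophages (red) and averaged over the subsets (black squares), with the SE as bars and filled symbols for an adjusted p under 0.05. Ctsl in MHCII+CD11c- macrophages (0.91) is the single filled subset value, and the averages of Ctsd, Ctsl, Lgmn and Ctsz are filled.

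The responses of the subsets were compared with each other in the same fit. No member was called in any of the 3 comparisons by edgeR or DESeq2, and none had an unadjusted p under 0.05. Of all tested genes, 0% were called between the responses of LYVE1+CX3CR1+ and MHCII+CD11c- macrophages and 0.00948% (1 gene) in each of the others. The largest difference among the abundant members was that of Ctsl, whose change was smaller in LYVE1+CX3CR1+ than in MHCII+CD11c- macrophages by 0.49 on the log2 scale (SE 0.24, adjusted p = 0.75). A difference in the response of these genes between subsets was therefore not shown, and SE values of 0.20 to 0.29 for the 9 genes other than Ctsk set the size that could be seen.

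Within a library, Cst3 was also set against the sum of the 9 protease genes, as a description. That sum includes Ctsd, which encodes an aspartic protease, whereas cystatins block cysteine cathepsins. The percent is therefore not a ratio of the inhibitor to its targets. Without treatment Cst3 was 11.7% to 13.0% of that sum in LYVE1+CX3CR1+, 12.4% to 14.1% in MHCII+CD11c- and 12.1% to 19.7% in MHCII+CD11c+ libraries. After IC it was 8.16% to 10.3%, 6.86% to 10.8% and 10.99% to 11.8%. In each subset the libraries after IC all lay below the untreated ones, most narrowly in MHCII+CD11c+ macrophages.

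**Figure D4:**
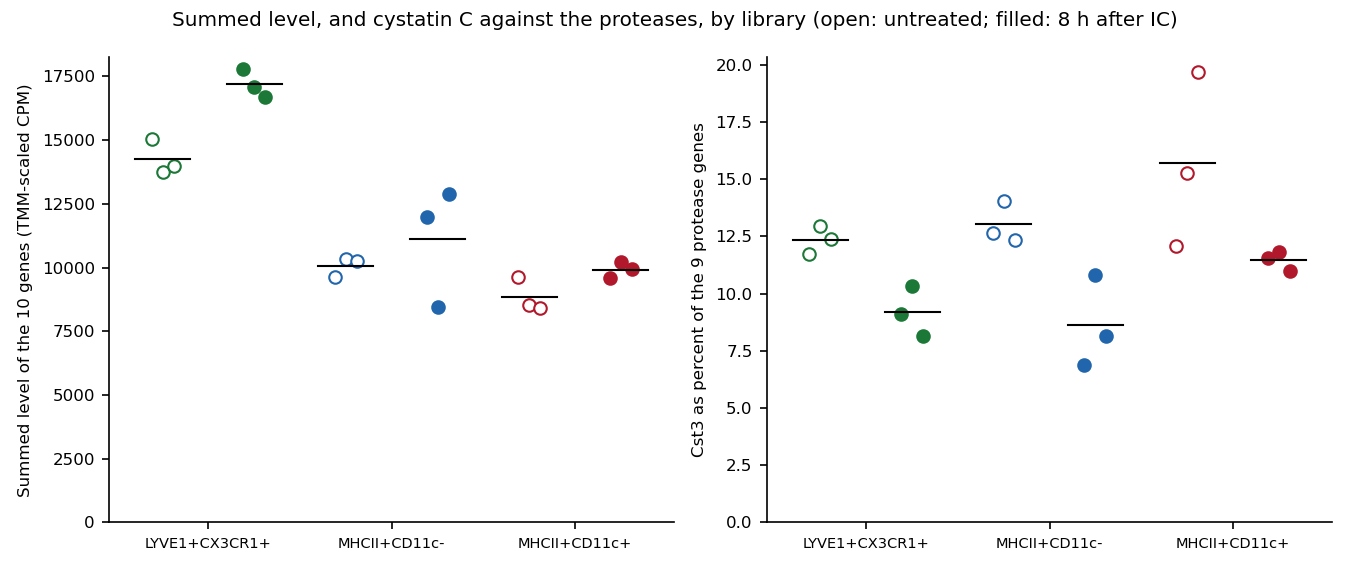
Summed level of the 10 genes (left, TMM-scaled CPM) and Cst3 as a percent of the summed CPM of the 9 protease genes (right) in each library by subset, with untreated libraries open, libraries after IC filled and means of 3 as lines. All LYVE1+CX3CR1+ libraries sum to 13760 CPM or more and all others to 12890 or less, and the Cst3 percent is lower in every library after IC than in any untreated library of its subset.

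Over the 18 libraries the levels of Ctsb, Ctsd, Lgmn and Ctss varied together, and Ctsz went with no other member (r = -0.35 to 0.28). Pearson's r of log2 CPM was 0.90 between Ctsb and Lgmn, Ctsb and Ctsd, Ctsd and Lgmn, and Ctsd and Ctss. It was lower between Ctsb and Ctss (0.84) and between Ctss and Lgmn (0.74). Ctsc and Ctsh went together at 0.70, and Ctsd and Ctsh against each other at -0.88. These coefficients share the 6 groups and are a description of them. Among 4918 other well-measured genes, those most like Ctsd included Rhoa (r = 0.97) and Cspg4, and those most like Lgmn were C1qc (0.97), a subunit of complement C1q, Cbr2 and Slco2b1. Nearest to Ctsb were Nrp1 (0.96), Tgfbi and Ctsa, the lysosomal carboxypeptidase, and nearest to Ctss were Gng5 (0.95), Ncf1 and Pbxip1. Ctsl was most like Ms4a6d (0.89), Agfg1 and Msr1, a scavenger receptor. On the other side stood Ctsh with Arhgap26 (0.97), Pik3cd and Pim1, and Ctsc with Ier5 (0.89), Nabp1 and Nfkb2. Ctsz was nearest to Arhgdib (0.89), Eno1 and Gapdh, Cst3 to Pdlim5 (0.92), Sfxn3 and S100a4, and Ctsk to Cyb5r3 (0.76), Ptrf and Mrpl17.

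The machinery around these proteases was measured in lists chosen with earlier results known. Of 9 tested genes among 11 other lysosomal peptidases, 5 were higher and 2 lower in untreated LYVE1+CX3CR1+ than in MHCII+CD11c+ macrophages, with a median of 0.58 against -0.02 over all tested genes, of which 21.8% were called. Dpp7, a dipeptidyl peptidase, was higher by 1.58 (SE 0.31, adjusted p = 0.00035), Ctsf by 1.56 (SE 0.33, adjusted p = 0.00094) and Scpep1 by 0.92 (SE 0.19, adjusted p = 0.00054). Prcp, a carboxypeptidase, was lower (-1.02, SE 0.17, adjusted p = 5.9e-05). Napsa, an aspartic protease related to Ctsd, had 0 to 2 counts in LYVE1+CX3CR1+ libraries and 94.0 to 118 CPM in MHCII+CD11c+ libraries, opposite to Ctsd. Against MHCII+CD11c- macrophages 3 were higher and 1 lower, with a median of 0.26 and 11.4% of all tested genes called.

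Of the 5 tested genes among 12 other cystatins and protease inhibitors, 3 were higher in untreated LYVE1+CX3CR1+ than in MHCII+CD11c+ macrophages and none was lower, with a median of 1.26 and 21.8% of all tested genes called. They were Ctla2a (3.70, SE 0.65, adjusted p = 0.00011) and Ctla2b (3.27, SE 0.53, adjusted p = 4.4e-05), which encode inhibitors resembling cathepsin propeptides, and Serpinb6a (1.26, SE 0.18, adjusted p = 6.4e-06). The same 3 genes were higher than in MHCII+CD11c- macrophages. Ctla2a and Ctla2b are near-identical, and their counts can be split between them. Stfa1, Stfa2 and Stfa3 had no count in untreated LYVE1+CX3CR1+ or MHCII+CD11c+ libraries.

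Of 11 genes for delivery to the lysosome, 3 were higher and 3 lower in that comparison (21.8% of all tested genes called), with a median of 0.28. Lamp2 (0.997, SE 0.15, adjusted p = 1.3e-05) and Lamp1 (0.88, SE 0.19, adjusted p = 0.00092), proteins of the lysosomal membrane, were higher, and so was Gnptg (1.501, SE 0.44, adjusted p = 0.014), part of the enzyme that adds the mannose 6-phosphate tag. Sorl1, a sorting receptor, was lower (-4.14, SE 0.53, adjusted p = 1.5e-06), as were the mannose 6-phosphate receptor Igf2r (-1.27, SE 0.43, adjusted p = 0.035) and Psap (-0.60, SE 0.18, adjusted p = 0.017). The proton pump that acidifies lysosomes had 6 of 16 genes higher and none lower, with a median of 0.38, where 21.8% of all tested genes were called, led by Atp6v1a (1.101, SE 0.18, adjusted p = 3.3e-05). Of the 4 MiT/TFE regulators none was called by edgeR without treatment (median 0.52 against MHCII+CD11c+ macrophages), and the levels of Tfeb were 25.3 to 37.6 CPM in LYVE1+CX3CR1+, 24.4 to 36.8 in MHCII+CD11c- and 21.5 to 40.1 CPM in MHCII+CD11c+ libraries. After IC Mitf was higher in LYVE1+CX3CR1+ than in MHCII+CD11c- (0.81, SE 0.24, adjusted p = 0.029) and MHCII+CD11c+ macrophages (0.88, SE 0.22, adjusted p = 0.0039), and the first of these was not called in the fit of the compared libraries alone (0.80, adjusted p = 0.13). Against untreated MHCII+CD11c- macrophages 1 of the 11 delivery genes was higher (Lamp2) and 1 lower (Sorl1), and 2 of the 16 pump genes were higher, where 11.4% of all tested genes were called.

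The invariant chain that cathepsins S and L cut followed the sort. Cd74, the invariant chain, was at 9.40 to 30.2 CPM in untreated LYVE1+CX3CR1+, 9161 to 9794 in MHCII+CD11c- and 12210 to 15400 CPM in MHCII+CD11c+ libraries, and all 4 genes of the list with the peptide loading proteins were lower in LYVE1+CX3CR1+ than in MHCII+CD11c+ macrophages (median -4.85, with 21.8% of all tested genes called). Of the list's genes, H2-DMa (-1.08, SE 0.22, adjusted p = 0.012) and H2-DMb1 (-0.94, SE 0.19, adjusted p = 0.011) fell after IC in MHCII+CD11c- macrophages, the comparison in which Ctsl rose. On average over the subsets H2-DMa fell by 0.87 (SE 0.14, adjusted p = 0.00025) and H2-DMb1 by 0.51 (SE 0.12, adjusted p = 0.0073), whereas Ifi30, a lysosomal thiol reductase, rose by 0.34 (SE 0.10, adjusted p = 0.032). In the other lists the average change was called for M6pr (0.46, SE 0.11, adjusted p = 0.013), the small mannose 6-phosphate receptor, Sorl1 (1.001, SE 0.28, adjusted p = 0.031), Prcp (-0.44, SE 0.10, adjusted p = 0.0089) and Ctla2a (1.47, SE 0.39, adjusted p = 0.020), and for no gene of the proton pump or MiT/TFE lists.

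Among other genes of osteoclasts, of which 6 of 10 were tested, 3 were lower (Mmp9, Dcstamp and Itgb3) and 1 higher (Tnfrsf11a, the receptor for RANKL, by 1.21, SE 0.23, adjusted p = 0.00023) in untreated LYVE1+CX3CR1+ than in MHCII+CD11c+ macrophages. Of all tested genes 21.8% were called. The median of the 6 was -1.96, or -1.58 with Dcstamp and Itgb3 set at a floor of 3 counts. Mmp9, a gelatinase that neutrophils also make, was at 4.72 to 8.15 CPM in LYVE1+CX3CR1+ and 100 to 115 CPM in MHCII+CD11c+ libraries. Dcstamp had no count in any LYVE1+CX3CR1+ or MHCII+CD11c- library and 13 to 55 counts in each MHCII+CD11c+ library. Acp5, the tartrate-resistant acid phosphatase, rose after IC on average over the subsets (0.95, SE 0.29, adjusted p = 0.047), where the fitted value of Ctsk was smaller than its SE.

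**Figure D5:**
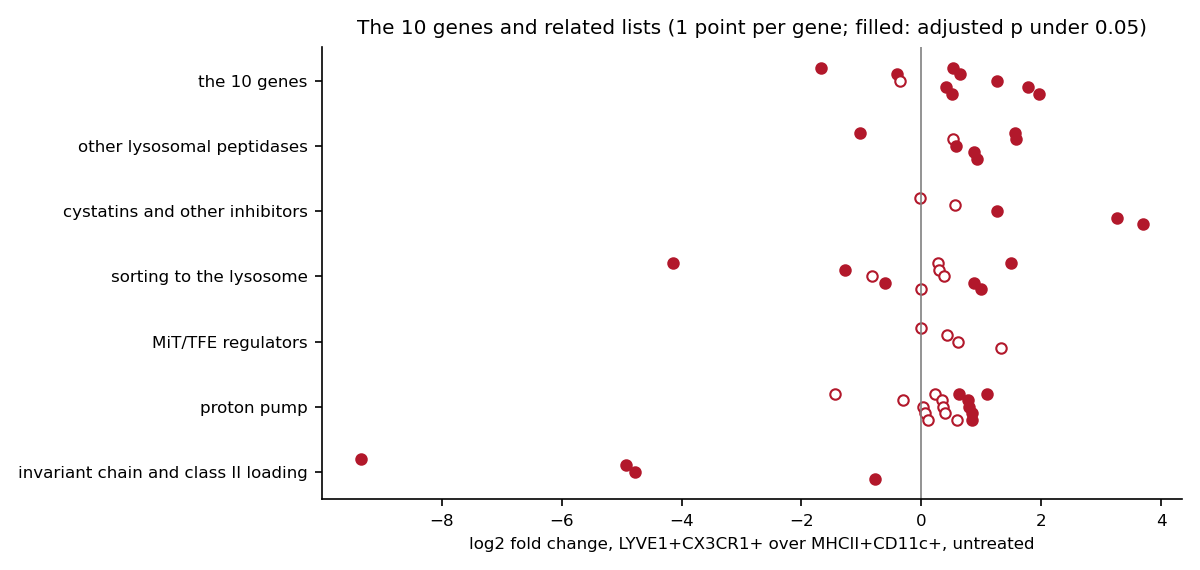
log2 fold change of untreated LYVE1+CX3CR1+ over MHCII+CD11c+ macrophages (horizontal axis) for the 10 genes and 6 related lists, 1 point per tested gene, filled for an adjusted p under 0.05. Ctse and Napsa, with 0 to 2 counts in each LYVE1+CX3CR1+ library, are left out, most called genes outside the class II list lie between -2 and 4, and Sorl1 (-4.14) and Cd74 (-9.34) lie far to the left.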

How the data were processed

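Total RNA of sorted synovial macrophages was sequenced as paired reads from a stranded pico-input kit. The authors trimmed the reads (Trim Galore, FastQC), aligned them to mm10 (HISAT2) and counted them per gene symbol (featureCounts), and deposited raw counts without normalization. Versions, annotation, strand setting and the treatment of multiply matching reads are not given in the sources used here, so counts of overlapping or near-identical genes are uncertain. A combined table held the same values and was not used. Libraries were grouped by their titles.

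From the deposited counts, edgeR 4.0.16 (R 4.3.3) kept 10550 genes (filterByExpr, minimum count 10, minimum total count 15) and computed TMM factors, CPM and log2 CPM (prior count 2). The quasi-likelihood test was fitted to all 18 libraries in 6 groups, with Benjamini-Hochberg adjustment over all tested genes per comparison and calls at 0.05. The SE was the size of the log2 fold change divided by the square root of F. The scripts were tested on simulated data with known changes. Lengths were unions of GENCODE M21 exons (GRCm38, the same build as mm10), and promoters came from RefSeq (GRCm38.p6). Coordinates are counted from 1. Alternatives were DESeq2 1.42.0, its size factors, other filters, the libraries compared alone, blocks by replicate number, 1 surrogate variable (sva 3.50.0) and leaving out each library. The members and lists were chosen with earlier results of these data known. All members called in the reported fit were named in each comparison, whereas of the members not called only some were named. The plots of log2 fold changes show every member for IC in each subset and for LYVE1+CX3CR1+ over each MHCII+ subset. From each list at most 6 called genes, those with the largest changes, were named, and beyond that rule genes with levels of interest. The 3 genes most like each member were taken by Pearson's r over 18 libraries among genes whose mean log2 CPM reached 5, and 1 of them is not reported here. P-values measure the spread between these libraries, each of which the study describes as several mice. Whether libraries of different subsets shared mice is not given in the sources used here. Library totals of 245903 to 2172358 counts limit the low genes, and libraries of a group all differed by more than sampling noise.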

Additional observations from a re-analysis of the deposited data

How the results depend on the processing

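The number of the 10 genes called was computed again under each alternative. Between the MHCII+ subsets without treatment 2 were called with DESeq2 in place of 1, and 548 of all genes in place of 368. After IC, edgeR on the compared libraries alone called 3 in LYVE1+CX3CR1+ macrophages in place of 0 (272 in place of 49 over all genes) and 0 in MHCII+CD11c- macrophages in place of 1 (19 in place of 112), and DESeq2 called 2 and 1 in MHCII+CD11c- and MHCII+CD11c+ macrophages (268 and 149 in place of 112 and 71). Between LYVE1+CX3CR1+ and MHCII+CD11c- macrophages after IC, 1 was called with 1 surrogate variable and 2 in the fit of the compared libraries alone, in place of 6 (435 and 460 in place of 1031). Between the MHCII+ subsets after IC, 2 were called with DESeq2, with no filter, with a minimum of 10 counts throughout and with a replicate block within each treatment, and 0 in the fit of the compared libraries alone, in place of 1 (over all genes 436, 465, 208, 340 and 100 in place of 300). The average over the subsets had 4 to 6 calls under the other alternatives.

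Leaving out each library in turn gave 3 to 6 calls between LYVE1+CX3CR1+ and MHCII+CD11c- macrophages without treatment and 4 to 6 after IC, 5 to 7 between LYVE1+CX3CR1+ and MHCII+CD11c+ macrophages without treatment and 4 to 6 after IC, 1 to 2 between the MHCII+ subsets without treatment and 0 to 3 after IC, 0 to 1 for IC in MHCII+CD11c- macrophages and 1 to 7 for the average change after IC. Comparisons of responses had 0 calls throughout. Of 1351 single values of the members under alternatives (those called or larger than their SE in the reported fit), 1231 kept direction and side of the threshold, 85 lost and 35 gained a call, and 0 changed direction. Smaller values changed sign in 81 fits, called in none. The called values of the related lists, refitted as an addition made after seeing the data, kept their sign in all of 1606 fits and lost the call in 191. The cause of these changes was not tested.

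The groups have the same replicate numbers, with no shared animal or day named in the labels. Libraries of the same number and treatment had a median correlation of deviations of 0.036 (-0.0455 to 0.132, over 0.1 in 1 of 18 pairs). For different numbers of the same treatment the median was lower, at -0.0247 (-0.13 to 0.078, 36 pairs). These values do not settle whether a number marks a shared pool, and the reported fit did not take the numbers as pairs. With the replicate block 6 and 9 genes were called in untreated LYVE1+CX3CR1+ against MHCII+CD11c- and MHCII+CD11c+ macrophages, in place of 5 and 9, and 4 for the average change after IC, as without it. A block within each treatment also gave 6 and 9. Between the untreated MHCII+ subsets that block called 1 member, as without it, and 472 of all genes in place of 368.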
